A study of Mus musculus with 9 samples.

Results

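The genes described here are 8 components and regulators of the complement system in cultured mouse neural stem cells (NSCs): C1ra, C4b, C2, C3, Cfb, Serping1, Cd55 and Cd59a. They are 8 of the 55704 genes in the deposited expression table and were matched by Ensembl identifier. They were chosen from their values in these same libraries, with the differences between the groups known, so their levels and fold changes are given as a description and without a test. The complement genes outside the 8 were tested where their level allowed. Their list, too, was drawn up with earlier results of these data known.

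NSCs were isolated from the subventricular zone (SVZ) of C57BL/6 mice of 8 to 9 weeks, with 2 females and 2 males combined in an isolation, passaged at least 3 times as floating cultures and then plated on poly-L-ornithine and laminin. The bFGF/EGF-treated NSCs, which proliferate in 20 ng/mL bFGF and 20 ng/mL EGF, were collected at day 0. The bFGF/BMP4-treated NSCs received 20 ng/mL bFGF and 20 ng/mL BMP4 without EGF, the BMP4-treated NSCs received 20 ng/mL BMP4 without bFGF and EGF, and both were collected at day 6. Bulk RNA-seq was done on 3 libraries of each group, named as biological replicates in the labels, which do not say whether they came from separate isolations. The bFGF/EGF-treated NSCs were the reference of both other groups, so the comparisons share libraries, and in a difference from them the factors and the 6 days in culture cannot be told apart. The libraries held 15892854 to 17419822 fragments on genes, and a gene with no more than 3 fragments in any library of a group counts here as not detected in that group, a limit for counting error only.

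Complement is a cascade of plasma and tissue proteins that marks cells, debris and synapses for removal and can punch pores into membranes. The classical pathway starts when C1q and its proteases C1r and C1s cleave C4 and C2, the alternative pathway uses factor B, and both meet at C3, whose fragments are deposited on surfaces. C1 inhibitor, encoded by Serping1, blocks the starting proteases, while Cd55 and Cd59 protect a cell's own membrane against the C3-cleaving enzymes and against the pore. In the brain, glial cells make many of these proteins, and C3 and C4 are known for their rise in reactive astrocytes.

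The sequences just before the transcription start sites show which DNA stands next to the 4 genes with the largest differences between the groups. They are the 300 bases before the start of the canonical GENCODE M39 transcript in GRCm39, read 5′ to 3′ on the strand of the gene. They lie at chr17:57535156-57535455 (minus strand) for C3, chr17:34962913-34963212 (minus strand) for C4b, chr2:103925832-103926131 (plus strand) for Cd59a and chr2:84605789-84606088 (minus strand) for Serping1. The Serping1 window lies inside the annotated span of Serping1 itself. Capitals mark matches to the motifs searched.
C3: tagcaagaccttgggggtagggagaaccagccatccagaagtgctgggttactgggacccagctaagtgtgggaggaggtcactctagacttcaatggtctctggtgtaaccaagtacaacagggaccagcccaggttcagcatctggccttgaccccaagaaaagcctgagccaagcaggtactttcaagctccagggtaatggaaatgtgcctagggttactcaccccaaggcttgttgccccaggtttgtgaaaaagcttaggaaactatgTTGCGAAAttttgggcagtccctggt
C4b: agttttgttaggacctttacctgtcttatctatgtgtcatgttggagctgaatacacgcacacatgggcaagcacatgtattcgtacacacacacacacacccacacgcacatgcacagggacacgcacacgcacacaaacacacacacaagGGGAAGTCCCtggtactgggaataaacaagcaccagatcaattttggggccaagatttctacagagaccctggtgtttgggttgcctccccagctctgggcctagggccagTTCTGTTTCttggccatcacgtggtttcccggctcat
Cd59a: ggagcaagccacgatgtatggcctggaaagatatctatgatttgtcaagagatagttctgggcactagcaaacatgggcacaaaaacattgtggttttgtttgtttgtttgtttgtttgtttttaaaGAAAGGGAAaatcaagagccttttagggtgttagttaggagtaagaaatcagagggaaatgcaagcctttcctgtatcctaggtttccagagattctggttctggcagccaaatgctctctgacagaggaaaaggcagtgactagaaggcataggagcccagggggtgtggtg
Serping1: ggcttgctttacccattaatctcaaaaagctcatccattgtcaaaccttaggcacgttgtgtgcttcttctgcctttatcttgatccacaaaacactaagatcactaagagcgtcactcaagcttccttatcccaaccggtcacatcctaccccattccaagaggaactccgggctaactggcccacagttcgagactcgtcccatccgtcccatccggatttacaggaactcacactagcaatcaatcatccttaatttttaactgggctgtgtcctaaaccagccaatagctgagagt

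The motifs, searched on both strands, were GAS (TTCNNNGAA), ISRE (GAAANNGAA), C/EBP (TTNNGCAA), the BMP response element (GCCGNCGC) and NF-kB. The capitals in C3 are a C/EBP match at bases -26 to -19 from the start site, those in C4b an NF-kB match at -148 to -139 and an ISRE match at -37 to -29, and those in Cd59a an ISRE match at -173 to -165. The Serping1 window held none of these letters. Of the other members, C1ra had a C/EBP match, C2 a GAS match, Cfb 2 NF-kB matches and Cd55 2 ISRE matches, and none of the 8 windows had a BMP response element. Such matches are common by themselves: among 21770 windows of this length before protein-coding genes, 11.4% held C/EBP, 9.29% ISRE, 9.2% GAS, 8.83% NF-kB and 6.13% the BMP response element.

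C3, the central component of the cascade (chr17:57510964-57535155), was almost only found in the BMP4-treated NSCs. Its FPKM, a level per length of the gene and per size of the library, was 0.011, 0 and 0 in the bFGF/EGF libraries, 0.012, 0.013 and 0 in the bFGF/BMP4 libraries and 109, 36.3 and 32.5 in the BMP4 libraries. The groups did not overlap between BMP4-treated NSCs and the others, while the bFGF/EGF and bFGF/BMP4 groups were both at or under the limit of detection, with 1 and 2 fragments in all, and no fold is given between them. The 14882 fragments in the BMP4 libraries made the level 15356 times that in bFGF/EGF-treated NSCs, with a 95% counting interval of 2756 to 606568, and 7014 times that in bFGF/BMP4-treated NSCs, with an interval of 1941 to 57919. Such intervals, here and below, cover counting error only and leave out the spread between replicates. On the log2(FPKM + 0.1) scale, which understates differences of low genes, the fold changes were 8.93 and 8.87 (SE 0.41). In bulk RNA, more cells that make C3 and more C3 RNA in each cell cannot be told apart.

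The BMP4 libraries differed among themselves in C3. Replicate 1 held 3.00 times the level of replicate 2 and 3.35 times that of replicate 3, the mean was 59.3 ± 43.1 FPKM (SD, n = 3), and without replicate 1 it was 34.4 FPKM. The log2 fold changes without that library were 8.38 against bFGF/EGF-treated NSCs and 8.32 against bFGF/BMP4-treated NSCs, so the difference between groups was far larger than the spread within BMP4-treated NSCs. The plot of the spread sets this beside C4b, Cd59a, Serping1, C1ra, C1s1 and Clu, in which no BMP4 library was above 1.24 times the mean of its group. C2, Cfb and Cd55 are not in that plot, since at most 12 fragments lay behind any of their values in BMP4-treated NSCs, and C2 and Cfb also ranged widely there, from 0.032 to 0.110 and from 0.021 to 0.065 FPKM.

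**Figure D1:**
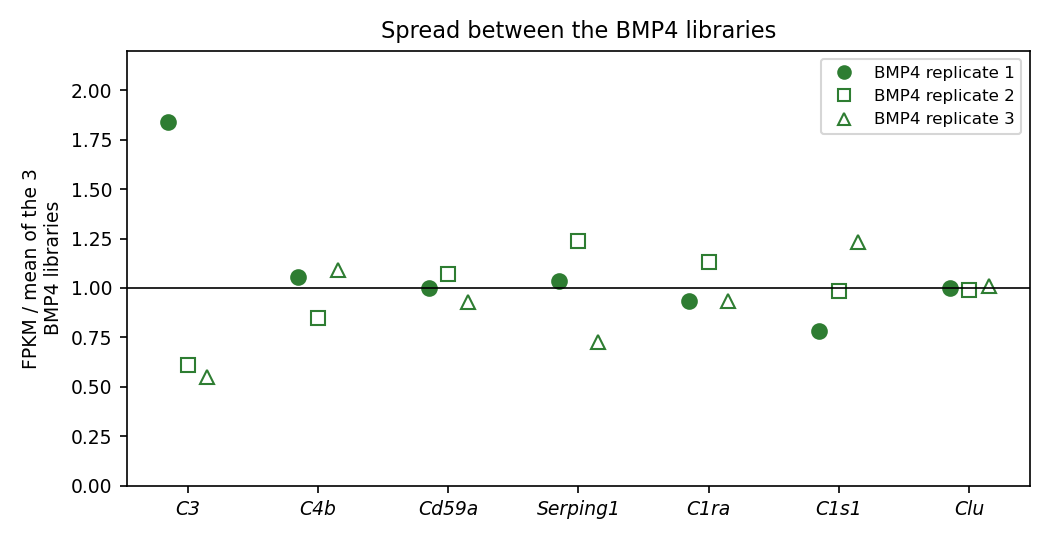
Level of 7 complement genes in each BMP4 library, as FPKM divided by the mean of the 3 BMP4 libraries (vertical axis, no unit), with a symbol for each replicate. C3 in replicate 1 lies at 1.84 times its mean and the other libraries at 0.612 and 0.549, while the other genes lie between 0.728 and 1.24.

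Cfb, factor B of the alternative pathway (chr17:35074852-35081559), was not detected in any group. Its FPKM was 0.021, 0 and 0.060 in the bFGF/EGF libraries, 0.022, 0.046 and 0.024 in the bFGF/BMP4 libraries and 0.065, 0.044 and 0.021 in the BMP4 libraries, with at most 3 fragments in a library. The groups overlapped, and a difference between them was not detectable at this depth. The strand setting of the counting is not given in the sources used here, and 49.8% of the exon bases of Cfb are also exon of Nelfe on the opposite strand and 65.7% exon of Gm20547 on the same strand, so fragments of Cfb may have been left unassigned or set to another gene.

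**Figure D2:**
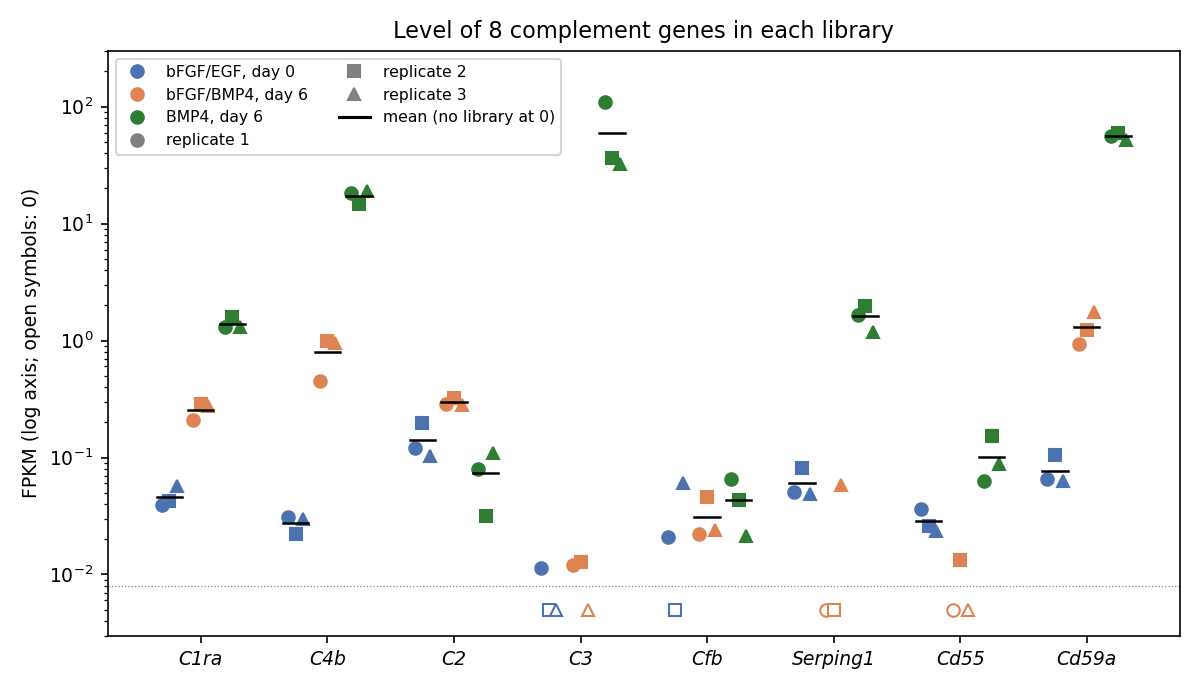
FPKM (vertical axis, log scale) of the 8 complement genes in each of the 9 libraries, coloured by group and with a symbol for each replicate. Bars are means of groups with no library at 0, and open symbols under the dotted line are values of 0. The BMP4 libraries lie above all others in C1ra, C4b, C3, Serping1, Cd55 and Cd59a, and the bFGF/BMP4 libraries in C2.

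C4b, the C4 of the classical and lectin pathways (chr17:34947354-34962912), differed between all 3 groups. It stood at 0.031, 0.022 and 0.030 FPKM in the bFGF/EGF libraries, 0.448, 0.984 and 0.955 in the bFGF/BMP4 libraries and 18.3, 14.7 and 18.9 in the BMP4 libraries. Every bFGF/BMP4 library was above every bFGF/EGF library and below every BMP4 library. The log2 fold changes were 2.75 for bFGF/BMP4 against bFGF/EGF, 7.08 for BMP4 against bFGF/EGF and 4.33 for BMP4 against bFGF/BMP4 (SE 0.28). In fragments the last of these was 21.9-fold, with a counting interval of 19.1 to 25.3.

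C4a is a near copy of C4b on the same chromosome, 65157 bases away, and its transcript is 96.2% identical to that of C4b over the aligned part. Of all 100-base windows of the C4b transcript, 16.3% also occur in C4a without a difference, so some fragments could be of either gene. The C4a level was 0.042 to 0.298 FPKM over all libraries and passed the threshold in no comparison.

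C1ra, the protease C1r that C1q switches on (chr6:124489364-124500402), had the same order of groups at lower levels. Its FPKM was 0.039, 0.042 and 0.057 in the bFGF/EGF libraries, 0.209, 0.284 and 0.274 in the bFGF/BMP4 libraries and 1.30, 1.57 and 1.30 in the BMP4 libraries. The groups did not overlap in any of the comparisons. The log2 fold changes were 1.28, 3.35 and 2.07 (SE 0.27) for bFGF/BMP4 against bFGF/EGF, BMP4 against bFGF/EGF and BMP4 against bFGF/BMP4. Only 7 fragments lay behind the bFGF/EGF level, and by fragments BMP4-treated NSCs were 29.9 times as high, with an interval of 14.3 to 75.4. C1rb, a copy with a transcript 98.0% identical to that of C1ra, was listed at 0 in all but BMP4 replicates 2 and 3, where it was at 0.025 FPKM. Of all 100-base windows of the C1ra transcript, 34.5% also occur in C1rb without a difference, so some fragments could be of either gene.

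C2, the protease that joins C4 in the classical C3-cleaving enzyme (chr17:35081578-35117241), was the only member whose mean was lower in BMP4-treated NSCs than in both other groups. The values were 0.122, 0.196 and 0.102 FPKM in the bFGF/EGF libraries, 0.289, 0.320 and 0.281 in the bFGF/BMP4 libraries and 0.080, 0.032 and 0.110 in the BMP4 libraries. The bFGF/BMP4 libraries lay above all others, and the bFGF/EGF and BMP4 libraries overlapped. The log2 fold changes were 0.74, -0.47 and -1.22 (SE 0.35), in the order given for C1ra. By fragments, C2 in BMP4-treated NSCs was 0.249 times that in bFGF/BMP4-treated NSCs, with an interval of 0.128 to 0.455, from 14 and 53 fragments. The level of C2 is uncertain because 38.4% of its exon bases are also exon of Gm20547, which was listed at 0 in all libraries, and 4.43% are exon of Zbtb12 on the opposite strand.

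Serping1, which encodes C1 inhibitor (chr2:84595705-84620873), was detected only in the BMP4-treated NSCs. Its FPKM was 0.051, 0.082 and 0.049 in the bFGF/EGF libraries, 0, 0 and 0.058 in the bFGF/BMP4 libraries and 1.67, 1.99 and 1.17 in the BMP4 libraries. The BMP4 libraries lay above all others, and the other groups were both under the limit of detection. BMP4-treated NSCs were 27.0 times as high as bFGF/EGF-treated NSCs in fragments (interval 12.8 to 68.0) and 86.2 times as high as bFGF/BMP4-treated NSCs (interval 23.5 to 718). The log2 fold changes were 3.39 and 3.85 (SE 0.35).

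Cd59a, a membrane-anchored inhibitor of the pore (chr2:103926132-103947029), had the second highest mean of the 8 in BMP4-treated NSCs and little spread there. The values were 0.065, 0.105 and 0.062 FPKM in the bFGF/EGF libraries, 0.928, 1.22 and 1.76 in the bFGF/BMP4 libraries and 55.6, 59.7 and 51.9 in the BMP4 libraries. The groups were separate in all 3 comparisons, with log2 fold changes of 2.95, 8.30 and 5.35 (SE 0.22). In fragments BMP4-treated NSCs were 43.1 times as high as bFGF/BMP4-treated NSCs, with an interval of 35.6 to 52.6. Its neighbour Cd59b, 4594 bases away with a transcript 93.4% identical, shares 14.1% of the 100-base windows of Cd59a, so a part of its fragments could be of Cd59a.

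Cd55, which takes apart the C3-cleaving enzymes on a cell's own surface (chr1:130366469-130390926), remained low in all groups. Its FPKM was 0.036, 0.026 and 0.023 in the bFGF/EGF libraries, 0, 0.013 and 0 in the bFGF/BMP4 libraries and 0.063, 0.153 and 0.087 in the BMP4 libraries. The BMP4 libraries lay above all others, with 24 fragments in all against 7 and 1. The ratio to bFGF/EGF-treated NSCs was 3.54 (interval 1.48 to 9.72) and that to bFGF/BMP4-treated NSCs 22.6 (interval 3.69 to 930). Its copy Cd55b was listed at 0 in all libraries.

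Within BMP4-treated NSCs the mean levels per gene length ran from C3 and Cd59a (59.3 and 55.7 FPKM) through C4b (17.3), Serping1 (1.61) and C1ra (1.39) to Cd55 (0.101), C2 (0.074) and Cfb (0.044). The libraries of C3 and Cd59a overlapped in this order, as did those of Serping1 and C1ra, of Cd55 and C2 and of C2 and Cfb, while C4b was apart from its neighbours. In bFGF/BMP4-treated NSCs Cd59a (1.31 FPKM) and C4b (0.796) led with overlapping libraries, followed by C2 (0.297) and C1ra (0.256), which also overlapped. In bFGF/EGF-treated NSCs C2 led with 0.140 FPKM, and no other member was detected.

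Of the 8 members, 6 passed the filter of a mean of 0.1 FPKM over all libraries and entered the fit of 20207 genes, and Cfb and Cd55 did not. In bFGF/BMP4 against bFGF/EGF, 3 of them (C1ra, C4b and Cd59a) were past the threshold (adjusted p up to 0.05, change of 2-fold or more) as higher and 0 as lower, where 16.5% of all genes tested were higher and 14.1% lower. In BMP4 against bFGF/EGF, 5 (C1ra, C4b, C3, Serping1 and Cd59a) were higher and 0 lower, where 21.3% of all genes were higher and 15.4% lower. In BMP4 against bFGF/BMP4, the same 5 genes were higher and C2 was lower, where 8.41% of all genes were higher and 5.14% lower. The members' median log2 fold changes over these 6 were 1.01, 5.24 and 4.09, beside medians over all genes tested of 0.06, 0.10 and 0.00. These values chose the members, so nothing is read from the counts.

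**Figure D3:**
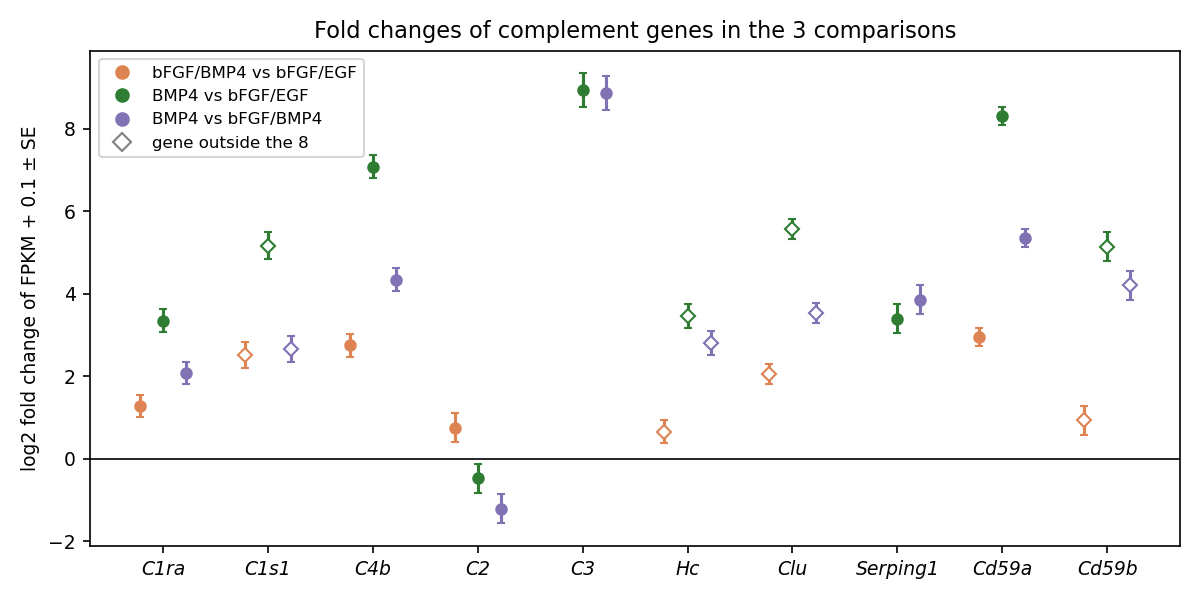
Log2 fold change of FPKM + 0.1 with its standard error (vertical axis) for 10 complement genes in the 3 comparisons. Filled circles are members and open diamonds C1s1, Hc, Clu and Cd59b, other complement genes; a comparison is left out where both groups were not detected. The BMP4 comparisons reach 8.93 in C3 and 8.30 in Cd59a, while C2 lies at 0.74, -0.47 and -1.22.

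The rest of the pathway was followed in a list of 49 other complement genes. It was drawn up with earlier results known, so its shares beside all genes are a description. Of these, 19 were tested, 14 were listed at 0 in every library and 16 were above 0 but too low for the test. C1qa, C1qb and C1qc, the chains of C1q that start the classical pathway, were among those at 0, as were Mbl1, C6 and C9. C3ar1 and C5ar1, the receptors of the C3 and C5 fragments, were not detected in any group. In bFGF/BMP4 against bFGF/EGF, 5 of the 19 rose and 1 fell (26.3% and 5.26%), beside 16.5% and 14.1% of all genes tested. In BMP4 against bFGF/EGF, 9 rose and 2 fell (47.4% and 10.5%, beside 21.3% and 15.4%). In BMP4 against bFGF/BMP4, 6 rose and 2 fell (31.6% and 10.5%, beside 8.41% and 5.14%). The median log2 fold changes of the 19 were 0.68, 0.89 and 0.41 in this order. Fcna, Itgb2 and Cd59b passed the filter only through the BMP4 libraries, which bears on the shares that rose. Their group means were 0, 0.076 and 0.238 FPKM for Fcna and 0.066, 0.007 and 0.349 FPKM for Itgb2. Those of Cd59b were 0.016, 0.131 and 3.92 FPKM.

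**Figure D4:**
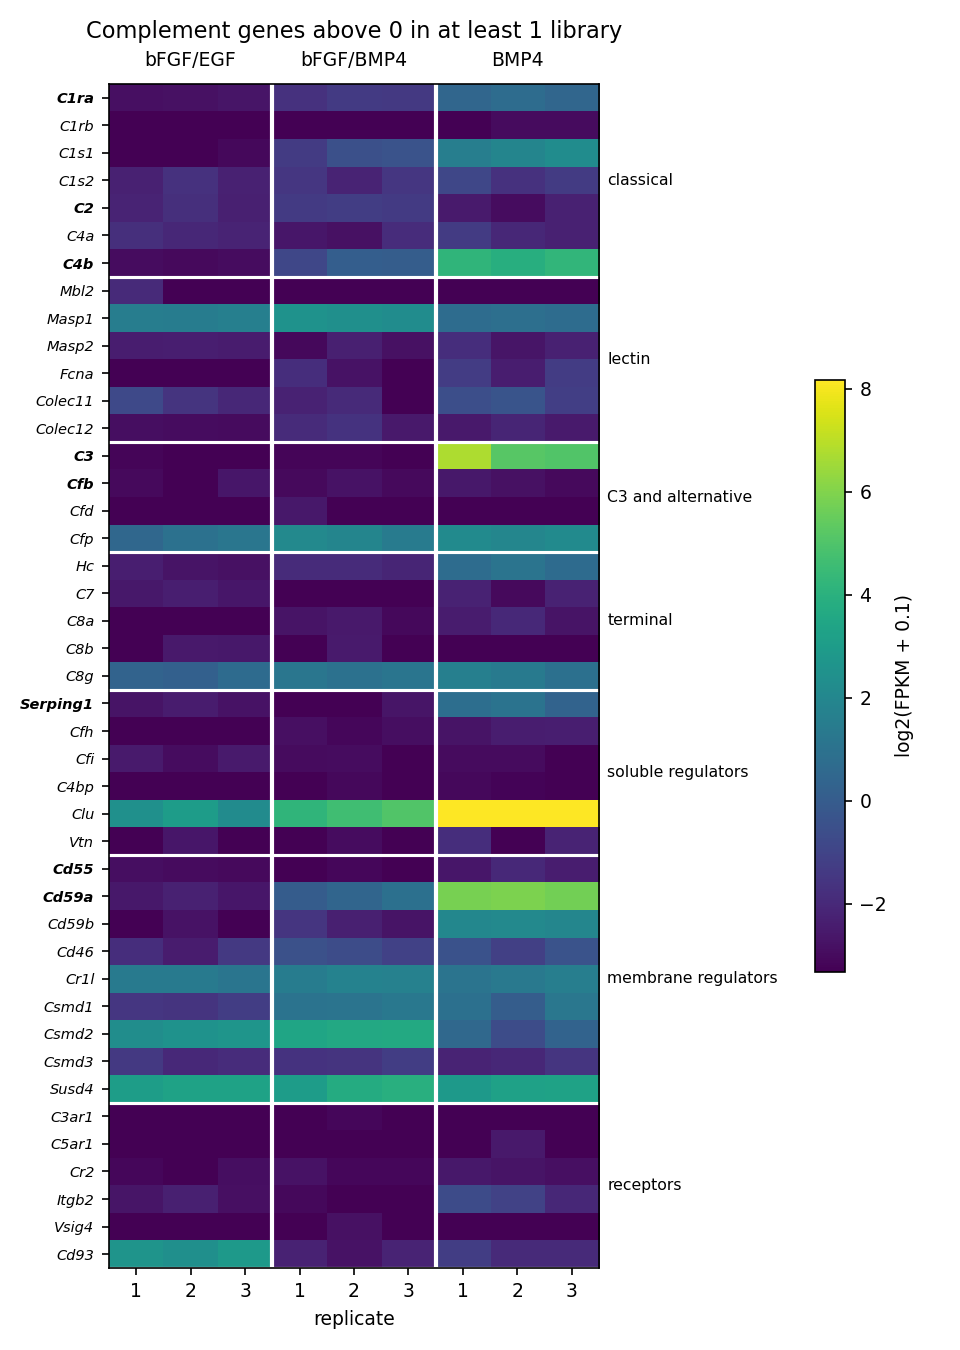
Level of the 43 listed complement genes that were above 0 in at least 1 library, as log2(FPKM + 0.1) in colour, with genes in rows ordered by pathway and the 9 libraries in columns by group and replicate. Members are in bold. Clu, C3, Cd59a and C4b are brightest in the BMP4 columns, Cd93 is bright in the bFGF/EGF columns alone and Csmd2 is brightest in the bFGF/BMP4 columns.

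Among the initiating proteases, C1s1, which encodes C1s, the partner of C1r, rose in all comparisons. Its FPKM was 0, 0 and 0.018 in the bFGF/EGF libraries, 0.298, 0.604 and 0.674 in the bFGF/BMP4 libraries and 2.93, 3.69 and 4.63 in the BMP4 libraries. The groups did not overlap, and the log2 fold changes were 2.51 (limma, adjusted p = 0.00014), 5.16 (adjusted p = 9.3e-07) and 2.66 (adjusted p = 0.00027) with an SE of 0.32. The first of these calls was lost with a pseudocount of 1 (0.59). C1s1 lies 6895 bases from C1ra on the opposite strand.

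Masp1, a protease of the lectin pathway, fell in BMP4- against bFGF/BMP4-treated NSCs. It stood at 2.82, 2.75 and 3.04 FPKM in the bFGF/EGF libraries, 5.77, 5.15 and 4.71 in the bFGF/BMP4 libraries and 1.55, 1.71 and 1.58 in the BMP4 libraries, with no overlap between groups. The log2 fold change was -1.63 (limma, adjusted p = 3.7e-05), while those of 0.83 and -0.80 against bFGF/EGF were under the fold threshold. Fcna, a ficolin that binds sugars, was at 0 in the bFGF/EGF libraries and 0.314, 0.090 and 0.309 FPKM in the BMP4 libraries with a log2 fold change of 1.67 (limma, adjusted p = 0.018). This call rests on 16 fragments in BMP4-treated NSCs, at least 1.83-fold higher against 3 fragments per library, and was lost with a pseudocount of 1 (0.30). Fcna passed the filter through few libraries and was no longer tested without bFGF/BMP4 replicate 1, BMP4 replicate 1 or BMP4 replicate 3. Colec11, a collectin of the same pathway, rose by 1.79 in BMP4 against bFGF/BMP4 (limma, adjusted p = 0.025), a call lost without bFGF/BMP4 replicate 3 (1.37), BMP4 replicate 1 (1.72) or BMP4 replicate 2 (1.61) and with a pseudocount of 1 (0.48).

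Of the genes around and after C3, Hc, which encodes C5, rose in BMP4-treated NSCs. Its FPKM was 0.094, 0.050 and 0.045 in the bFGF/EGF libraries, 0.169, 0.166 and 0.130 in the bFGF/BMP4 libraries and 1.54, 2.02 and 1.5 in the BMP4 libraries. No groups overlapped, and the log2 fold changes of BMP4-treated NSCs were 3.45 against bFGF/EGF (limma, adjusted p = 5.6e-06) and 2.80 against bFGF/BMP4 (adjusted p = 0.00010), while that of bFGF/BMP4 against bFGF/EGF was 0.65 (adjusted p = 0.087). Cfp, properdin, which stabilises the alternative C3-cleaving enzyme, rose from 1.32 to 2.18 FPKM in the bFGF/EGF libraries to 3.73 to 4.43 in the BMP4 libraries (log2 fold change 1.21, limma, adjusted p = 0.0011), a call lost with a pseudocount of 1 (0.91). Its fold change of 0.94 in bFGF/BMP4 against bFGF/EGF was under the threshold and passed it without bFGF/EGF replicate 3 (1.09) or bFGF/BMP4 replicate 3 (1.12). C8g, a chain of the pore, was at 1.06 to 2.97 FPKM over all libraries, and its differences were under 2-fold.

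Among the regulators, Clu, the secreted chaperone clusterin that also blocks the pore, was the complement gene with the highest level in BMP4-treated NSCs. Its FPKM was 5.41, 8.17 and 4.58 in the bFGF/EGF libraries, 18.0, 25.1 and 32.8 in the bFGF/BMP4 libraries and 284, 281 and 287 in the BMP4 libraries. The groups were separate, and the log2 fold changes were 2.05 (limma, adjusted p = 7.4e-05), 5.57 (adjusted p = 1e-07) and 3.53 (adjusted p = 9.3e-06) with an SE of 0.24. Clu alone made up 11.8% to 20.9% of the summed FPKM of the 57 complement genes in the bFGF/EGF libraries, 31.0% to 40.4% in the bFGF/BMP4 libraries and 56.4% to 66.8% in the BMP4 libraries. That sum was 35.0 to 39.1, 58.1 to 81.3 and 429 to 504 FPKM, of which the 8 members gave 0.376 to 0.473, 1.91 to 3.36 and 106 to 186 FPKM.

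Cd59b, the other mouse Cd59 gene, stood at 0, 0.049 and 0 FPKM in the bFGF/EGF libraries, 0.239, 0.10 and 0.052 in the bFGF/BMP4 libraries and 3.84, 4.08 and 3.82 in the BMP4 libraries. It rose in BMP4-treated NSCs by 5.14 against bFGF/EGF (limma, adjusted p = 1.7e-06) and by 4.20 against bFGF/BMP4 (adjusted p = 3.1e-05) on the log2 scale. Its fold change of 0.93 in bFGF/BMP4 against bFGF/EGF (limma, adjusted p = 0.051) did not pass, and passed without bFGF/EGF replicate 2 (1.12) or bFGF/BMP4 replicate 3 (1.19). The fragments shared with Cd59a bear on these values, and Cd59b passed the filter only through the BMP4 libraries.

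The large membrane proteins with complement-control domains went different ways. Csmd1 rose in bFGF/BMP4-treated NSCs (0.236 to 0.324 FPKM in bFGF/EGF, 1.98 to 2.36 in bFGF/BMP4 and 0.957 to 2.26 in BMP4), with log2 fold changes of 2.59 (limma, adjusted p = 6.4e-05) and, for BMP4 against bFGF/EGF, 2.18 (adjusted p = 0.00015). Csmd2 stood at 4.80, 5.69 and 6.35 FPKM in the bFGF/EGF libraries, 10.6, 12.2 and 12.4 in the bFGF/BMP4 libraries and 1.39, 0.535 and 1.15 in the BMP4 libraries. It fell in BMP4-treated NSCs, with log2 fold changes of -2.42 against bFGF/EGF (limma, adjusted p = 4.8e-05) and -3.48 against bFGF/BMP4 (adjusted p = 2.3e-05). Its rise of 1.06 in bFGF/BMP4 against bFGF/EGF (limma, adjusted p = 0.010) was lost without bFGF/EGF replicate 1 (0.95), with a pseudocount of 1 (0.95) and with limma-voom (0.96).

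Cd46, which helps to inactivate C3 fragments, was at 0.083 to 0.275 FPKM in bFGF/EGF, 0.367 to 0.630 in bFGF/BMP4 and 0.357 to 0.670 in BMP4. It rose against bFGF/EGF by 1.15 (limma, adjusted p = 0.027) and 1.24 (adjusted p = 0.017). The first call was lost without bFGF/EGF replicate 1 (1.19) or 2 (0.87) or bFGF/BMP4 replicate 1 (1.01) or 2 (1.11), and the second without bFGF/EGF replicate 2 (0.96) or BMP4 replicate 1 (1.14) or 3 (1.11), and both with a pseudocount of 1 (0.35 and 0.39). Cr1l, which encodes the rodent C3 regulator Crry, and Susd4 were at 2.02 to 3.28 and 7.38 to 15.3 FPKM over all libraries and passed in no comparison.

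Cd93, a membrane protein once described as a C1q receptor, was the complement gene that fell most against bFGF/EGF-treated NSCs. It stood at 6.15, 5.13 and 7.29 FPKM in the bFGF/EGF libraries, 0.112, 0.049 and 0.122 in the bFGF/BMP4 libraries and 0.323, 0.157 and 0.154 in the BMP4 libraries, with log2 fold changes of -5.02 (limma, adjusted p = 1e-06) and -4.36 (adjusted p = 1.8e-06). Itgb2, the beta chain of the complement receptors 3 and 4, rose in BMP4-treated NSCs by 1.97 against bFGF/BMP4 (limma, adjusted p = 0.010) and by 1.35 against bFGF/EGF (adjusted p = 0.027) at 0.139 to 0.525 FPKM, while the alpha chains Itgam and Itgax were listed at 0 in all libraries. Its call against bFGF/EGF was lost without bFGF/EGF replicate 1 (1.32) or 3 (1.22) or BMP4 replicate 2 (1.24). Without BMP4 replicate 1, Itgb2 was under the filter and not tested, and with a pseudocount of 1 both calls were lost (0.41 and 0.33).

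Transcription factors known to act on complement genes were read from a list of 8, all tested. Cebpb, a C/EBP factor of the acute phase response, stood at 6.10, 8.91 and 7.68 FPKM in the bFGF/EGF libraries, 0.786, 1.13 and 1.58 in the bFGF/BMP4 libraries and 7.17, 10.1 and 5.32 in the BMP4 libraries. It fell by 2.63 on the log2 scale in bFGF/BMP4 against bFGF/EGF (limma, adjusted p = 4.5e-05) and was higher by 2.59 in BMP4 against bFGF/BMP4 (adjusted p = 0.00015). Cebpd, another C/EBP factor, rose in BMP4 against bFGF/EGF by 1.36 (limma, adjusted p = 0.00089), and Irf1, an interferon regulatory factor, in BMP4 against bFGF/BMP4 by 1.02 (adjusted p = 0.016). Nr1h3, the lipid-sensing receptor LXR alpha, rose in bFGF/BMP4 and in BMP4 against bFGF/EGF by 2.42 (limma, adjusted p = 5.8e-05) and 2.2 (adjusted p = 8.1e-05).

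The genes next to the members were set beside them, since C4b, C2, Cfb and C3 all lie on chromosome 17 and C2 and Cfb are only 19 bases apart. The counts that follow are for tested genes within 100 kb and stand beside the shares of all genes given above. Of the 8 genes near C4b, 0 were past the threshold in any comparison. Of the 4 near C3, 1 was higher (Trip10) and 1 lower (Tnfsf9) in bFGF/BMP4 against bFGF/EGF, 3 were higher (Gm11110, Gpr108 and Trip10) and 1 lower (Tnfsf9) in BMP4 against bFGF/EGF, and 0 passed in BMP4 against bFGF/BMP4. Of the 4 near C1ra, 3 were higher in bFGF/BMP4 against bFGF/EGF (Clstn3, C1rl and C1s1) and 2 in BMP4 against bFGF/EGF (C1rl and C1s1). In BMP4 against bFGF/BMP4, 1 was higher (C1s1), and 0 were lower in any comparison. C1rl passed the filter only through the BMP4 libraries.

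Of the 6 genes near Cd59a, D430041D05Rik was lower in both comparisons with bFGF/EGF, and Cd59b and A930018P22Rik were higher in BMP4 against bFGF/EGF. All 3 were higher in BMP4 against bFGF/BMP4. Cd59b and A930018P22Rik passed the filter only through the BMP4 libraries. Of the 14 near Serping1, 1 was higher in each comparison, and 3, 2 and 1 were lower in bFGF/BMP4 against bFGF/EGF, BMP4 against bFGF/EGF and BMP4 against bFGF/BMP4. In the same order, 1, 2 and 2 of the 14 genes near C2 were higher, all of them the heat shock genes Hspa1a and Hspa1b, and 3, 3 and 0 lower. Of the 11 near Cfb, 1, 1 and 1 were higher (Hspa1b) and 2, 2 and 1 lower. The last of these is C2, itself a member chosen from these values, so nothing is read from it.

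The patterns over the 9 libraries were compared by Pearson's r of log2(FPKM + 0.1), which is a description, since the libraries fall into 3 groups and a gene with the same order of groups reaches a high value. Among 7884 genes with a mean of at least 5 FPKM, those most like C4b were Slc14a1, a urea transporter (r = 0.998), Nrp2 and A2m, and those most like Cd59a were Zcchc18 (r = 0.998), Hspa2 and Clu. C1ra was also most like Slc14a1 (r = 0.997), followed by Ctnnal1 and Il17rb. C3 was most like Gpr137b (r = 0.996), Gpr137b-ps and Slc16a1, a lactate transporter, and Serping1 most like Gpr37l1 (r = 0.992), Actr8 and Oat. C2 was most like Ctnnd2 (r = 0.975), Slc9a8 and Emc1. Among the members, C4b, C1ra and Cd59a were most alike (r = 0.996 to 0.997), and C3 and Serping1 had r = 0.978.

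Markers of other cell types also differed between the groups, and the members themselves had no single order of groups. The sums of the astrocyte, ependymal, neuron, microglia and vascular lists were all highest in BMP4-treated NSCs, without overlap. Single genes made up most of several of these sums there. The 8 astrocyte markers summed to 211 to 291 FPKM in the bFGF/EGF libraries, 693 to 798 in the bFGF/BMP4 libraries and 3775 to 4667 in the BMP4 libraries, where Gfap made up most of the sum, with means of 0.093, 19.4 and 2566 FPKM. In each comparison 6 of the 8 were higher and 1 lower. Aldh1l1 was lower in both comparisons with bFGF/EGF (means of 135, 24.2 and 58.1 FPKM), Slc1a2 was lower in BMP4 against bFGF/BMP4 (12.6, 175 and 65.5 FPKM), and S100b did not pass in that comparison (0.624, 55.1 and 40.1 FPKM).

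The 8 NSC markers, Sox2 and Nes among them, summed to 1745 to 1860, 751 to 852 and 1475 to 1920 FPKM. The sums of the bFGF/EGF and BMP4 libraries overlapped, but single markers went different ways. In BMP4 against bFGF/EGF, Pax6 was higher, Nes and Egfr were lower and 5 passed in neither direction. The means were 151, 3.55 and 15.8 FPKM for Nes and 167, 137 and 137 FPKM for Sox2. The 6 ependymal markers summed to 6.71 to 11.3, 10.7 to 11.4 and 55.1 to 64.7 FPKM and were highest in BMP4-treated NSCs. Foxj1 made up most of that sum in each group (means of 8.26, 10.0 and 55.1 FPKM). The 3 tested were higher in both BMP4 comparisons, and Tmem212 and Deup1 were at 0 in all libraries. The 8 neuron markers summed to 79.2 to 95.7, 48.2 to 53.9 and 144 to 216 FPKM and were lowest in bFGF/BMP4-treated NSCs. Tubb3 made up most of that sum in the BMP4 libraries (means of 20.3, 17.0 and 145 FPKM). Map2 and Syt1 had their highest means in bFGF/EGF-treated NSCs (56.2, 30.5 and 34.1, and 3.83, 0.137 and 0.371 FPKM). In BMP4 against bFGF/EGF, 2 of the 7 tested neuron markers were higher and 1 lower. The 8 oligodendrocyte lineage markers summed to 461 to 671, 206 to 333 and 51.0 to 74.9 FPKM, with the BMP4 libraries lowest.

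Microglia and vascular cells also make complement proteins. The 9 microglia markers in the table summed to 0.484 to 1.2 FPKM in the bFGF/EGF libraries, 0.412 to 0.739 in the bFGF/BMP4 libraries and 1.63 to 2.02 in the BMP4 libraries. Tyrobp was at 0 in all libraries, and Aif1, Csf1r and Trem2 were not detected in any group. Of the 3 that were tested, Tmem119 was higher in all comparisons (means of 0, 0.257 and 1.34 FPKM), P2ry12 was lower in both comparisons with bFGF/EGF (0.561, 0.153 and 0.225 FPKM), and Fcer1g passed in none (0.222, 0.128 and 0.256 FPKM).

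The 10 markers of vascular cells and fibroblasts summed to 0.165 to 0.252, 0.931 to 1.22 and 1.49 to 2.04 FPKM. The astrocyte sums and C1ra, C4b and Cd59a had this order of groups too. Cldn5 was at 0 and Cdh5, Dcn, Lum and Kcnj8 were not detected. Pecam1 and Col1a2 were detected but too low for the test, and both had their highest mean in bFGF/BMP4-treated NSCs. The means were 0.017, 0.230 and 0.043 FPKM for Pecam1 and 0.016, 0.046 and 0.015 FPKM for Col1a2. Of the 3 tested, Rgs5, a pericyte gene, was higher in both comparisons with bFGF/EGF (means of 0.043, 0.621 and 0.949 FPKM). Pdgfrb was higher in BMP4-treated NSCs than in both other groups (0.014, 0.071 and 0.385 FPKM) but passed the filter only through the BMP4 libraries. Col1a1 passed in none of the comparisons. The part of these cell types in the levels of the complement genes was not tested.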

How the data were processed

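Total RNA of 9 cultures was sequenced as paired-end reads. According to the submitters' processing notes, the authors used fastp 0.19.7, HISAT2 2.0.5 on mm39 and featureCounts 1.5.0-p3, and they deposited FPKM values; the annotation release, the strand setting and the program that scaled the values are not given in the sources used here. Each FPKM value was a whole number of fragments times a constant of the gene and one of the library (tolerance 0.02, 30860 of 30860 genes above 0), and these fragment numbers were used for ratios with exact 95% binomial intervals. For the libraries, this constant came to 0.919 to 1.07 of the fragment total. The intervals are from fragments summed over the libraries of a group and leave out the spread between replicates.

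Differences were fitted with limma 3.58.1 (R 4.3.3, trend) on log2(FPKM + 0.1) over all 9 libraries, for 20207 genes with a mean of at least 0.1 FPKM, two-sided, with Benjamini-Hochberg adjustment over all of them. The threshold was an adjusted p-value up to 0.05 with a change of 2-fold or more. The fit was tested on simulated data. The members and lists were chosen with earlier results of these data known. Named were the 8 members and their near copies, other complement genes past the threshold or with a group mean of at least 1 FPKM, listed regulators past the threshold, the 3 genes most like a member and leading or defining markers; other names were chosen after their values were seen, and 1 listed regulator is not reported here. Sequences came from GRCm39 and GENCODE M39, in which 54749 of 55414 Ensembl identifiers were found; they were read with Python 3.11.15 and aligned with Biopython 1.88. The alternatives were another pseudocount, filter, scale, fold threshold or set of samples, limma-voom on the fragments, a replicate block and each library left out in turn.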

Additional observations from a re-analysis of the deposited data

How the results depend on the processing

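Of the counts of other complement genes, that of genes higher in bFGF/BMP4 against bFGF/EGF (5) became 2 with a pseudocount of 1, 8 with no fold threshold and 3 to 7 with a library left out, the 3 being without bFGF/EGF replicate 1. The count of genes higher in BMP4 against bFGF/EGF (9) became 5 with a pseudocount of 1, 5 with a mean FPKM of at least 1, which tests fewer genes, and 6 to 9 with a library left out. That of genes higher in BMP4 against bFGF/BMP4 (6) became 3 with a filter at a mean of 1 FPKM and 4 to 6 with a library left out; without BMP4 replicate 1 the last 2 counts were 6 and 4. The count of genes lower in bFGF/BMP4 against bFGF/EGF (1) became 2 with limma-voom, which added Itgb2 (-2.31). With a library left out, the counts of lower genes remained at 1, 2 and 2. For single other complement genes, 604 values kept direction and side of the threshold, 25 lost it and 7 gained it, and none changed sign past it. Of the members' fold changes, 235 moved by less than 1 SD of the replicates and 29 by more, the latter only with a pseudocount of 1 or limma-voom, and C3 in BMP4 against bFGF/EGF was 5.68 and 12.46 with these.

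Libraries with the same replicate number did not clearly deviate together (r = -0.212 to 0.222, beside -0.248 to 0.187 for different numbers). With 3 libraries in a group this cannot exclude a pairing, on which the labels are silent. A replicate block gave the same counts of other complement genes, 5 higher and 1 lower, 9 and 2, and 6 and 2. Depth limits Cfb, Cd55 and the members in bFGF/EGF-treated NSCs, where 0 to 3 fragments lay in a library for all but C2.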

Other observations

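Few genes separated the BMP4 libraries the way C3 did. Of 7671 genes with a mean of at least 5 FPKM in BMP4-treated NSCs, 6 were at least 2 times as high in replicate 1 as in each other BMP4 library, and C3 had the largest of these ratios (3.00 to the higher of the others). Another of the 6 was Myoc, the secreted protein myocilin, at 1504, 729 and 662 FPKM, named after its values were seen. By the same measure 13 genes were higher in replicate 2 and 6 in replicate 3.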
